A study of Mus musculus with 6 samples.

Results

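The Hedgehog signalling genes described here were the ligands *Shh* and *Ihh*, the receptor *Ptch1*, the co-receptor *Boc*, the ligand inhibitor *Hhip*, the signal transducer *Smo* and the transcription factors *Gli1*, *Gli2* and *Gli3*. These 9 genes were chosen by name, out of 19938 genes with an array value, and each was read by 1 probe set annotated to a single gene symbol. Values came from whole lungs of E18.5 mouse embryos on the C57Bl/6 background, 3 WT and 3 *Tnrc6a* null, with 1 embryo on each array. The null embryos were homozygous for a gene trap, an insertion of a β-galactosidase reporter in the *Tnrc6a* locus that is carried by every cell and not by lung cells alone, and the WT embryos were littermates. *Tnrc6a* encodes TNRC6A (GW182), a partner of Argonaute proteins in silencing by microRNAs, and the comparison asked which transcripts differed in its absence. The deposited values are logarithms, to base 2 by the labels. The base could not be settled from the values, so every change is given as null minus WT on the deposited log scale and never as a fold. Labels tie no WT lung to a null lung, and no batch is named in the sources used here.

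In the Hedgehog pathway a secreted ligand binds PTCH1 and so relieves its inhibition of SMO, which then moves into the primary cilium and switches the GLI proteins from repressors to activators. In the fetal lung *Shh* is made by the airway epithelium and is received by the surrounding mesenchyme, where the pathway supports growth of the mesenchyme and formation of airway smooth muscle. *Ptch1*, *Gli1* and *Hhip* are themselves transcribed in response to the signal, so that their RNA is commonly read as a measure of pathway activity, and PTCH1 and HHIP also hold the signal back by binding the ligand.

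The gene carrying the trap followed the labels. *Tnrc6a* had WT values of 7.38, 7.13 and 7.18 against null values of 5.45, 5.04 and 5.40, a difference of -1.93 (standard error 0.128, adjusted p = 0.00312 from limma with Benjamini-Hochberg adjustment). It was the only one of the 19938 genes (0.00502%) with an adjusted p under 0.05, while an unadjusted p under 0.05 was reached by 1081 (5.42%). Without WT replicate 3 it missed the threshold (adjusted p = 0.0552), as it did with the methods' t-test (adjusted p = 0.551 after Benjamini-Hochberg adjustment). The surfactant gene *Sftpc* and the lung mesenchyme gene *Tcf21*, defining markers of the tissue, were bright in all 6 lungs. Across genes, the correlation of WT replicate 1 with null replicate 3 was 0.992, above that of either with any lung of its own genotype, so values without these lungs are given where they matter.

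No difference of the 9 pathway transcripts between the genotypes could be told from none after adjustment. No Hedgehog gene of the 9 had an adjusted p under 0.05 (0.89 to 0.997 with limma), 6 were higher and 3 lower on average, and the median difference was 0.03 against 0 over all genes. The split depended on scaling, with 7 higher and 2 lower after quantile normalization and 4 higher and 5 lower after centring each array on its median. At an unadjusted p under 0.05 there was 1 gene, the inhibitor *Hhip*, and it was also the only gene of the 9 whose genotypes did not overlap, whereas over all genes they did not overlap in 10.2%. A share of 1 in 9 is close to that background and is no result about these genes. The 95% intervals of the 7 genes other than *Ihh* and *Hhip* all lay between -0.30 and 0.39. These are the outermost bounds of 7 separate intervals, set by *Smo* and *Gli1*, and not a limit that applies to every gene. Each of the 7 intervals holds 0 and rests on 3 lungs a genotype, and most are narrower, such as that of *Shh* (-0.15 to 0.22).

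The ligand *Shh* had WT values of 6.91, 7.07 and 6.97 against null values of 7.08, 6.96 and 7.01. The genotypes overlapped, and the highest and lowest lungs were 0.17 apart. The difference was 0.03, with a 95% interval of -0.15 to 0.22 (limma, adjusted p = 0.97), so *Shh* was one of the most tightly measured of the 9 genes.

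*Ihh* encodes the related ligand best known from growing cartilage and gut. It had WT values of 4.91, 5.11 and 5.25 against null values of 4.97, 5.64 and 5.25. Null replicate 2 was the highest lung, and the other null lungs lay within the WT range. The difference was 0.20, with the widest interval of the 9 genes (-0.20 to 0.59, adjusted p = 0.907 from limma), and it was 0.02 without null replicate 2 and 0.36 without null replicate 1 (limma, adjusted p = 0.98). *Ihh* was dim, the 1 gene of the 9 below the median signal of all genes, and no signal over background could be measured. Because whole lungs can include airway cartilage, its genes were read as well. The same limit holds for them, since several were dimmer still, such as *Acan* (3.72 to 3.97) and *Matn1* (3.58 to 4.13). Of 9 cartilage genes 6 were higher and 3 lower, none at an unadjusted p under 0.05, with a median of 0.02 (6 lower after quantile normalization and 5 after median centring), which turned to -0.03 without null replicate 3 and -0.04 without WT replicate 1. The mean of the cartilage list ran from 4.68 to 4.86 in the WT lungs and from 4.74 to 4.87 in the null lungs, and stood at 4.81 in null replicate 2, inside the WT range.

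The receptor *Ptch1*, a target of the pathway, had WT values of 8.39, 8.38 and 8.42 against null values of 8.46, 8.32 and 8.63. The WT lungs were nearly equal, while the null lungs lay on both sides of them. The difference was 0.07 (95% interval -0.13 to 0.28, adjusted p = 0.932 from limma) and rested on null replicate 3, without which it was -0.01.

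*Boc*, which encodes a surface protein that binds the ligand together with PTCH1, had WT values of 7.85, 7.98 and 7.78 against null values of 7.78, 7.92 and 7.94. Every null value lay within the WT range. The difference was 0.01 (95% interval -0.18 to 0.20, adjusted p = 0.993 from limma).

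*Smo* had WT values of 7.53, 7.74 and 7.81 against null values of 7.66, 7.54 and 7.61. All null lungs lay within the WT range, because WT replicate 1 was the lowest lung. The difference was -0.09 (95% interval -0.30 to 0.12, adjusted p = 0.926 from limma) and ran from -0.17 without WT replicate 1 (adjusted p = 0.588) to -0.06 without null replicate 2 and -0.03 without WT replicate 3.

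**Figure D1:**
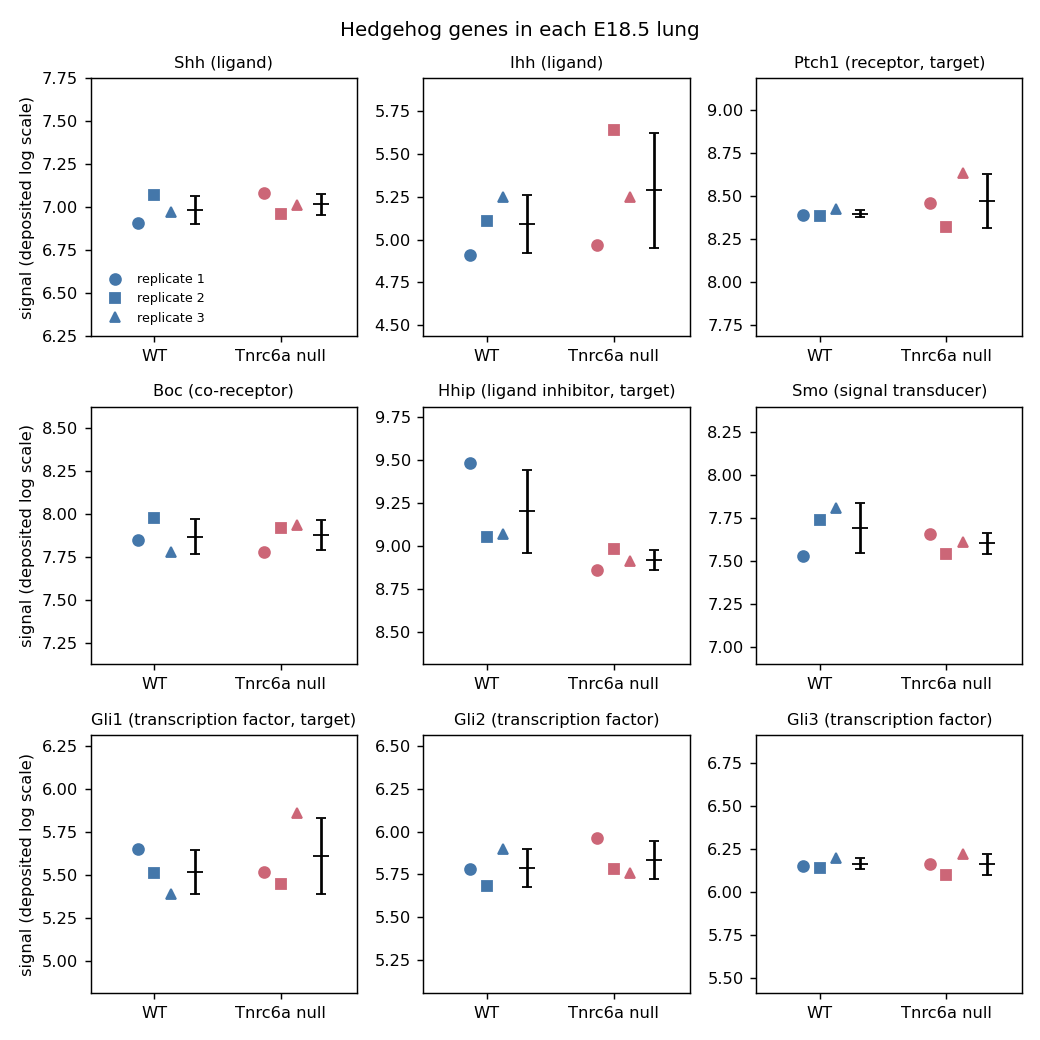
Signal of the 9 Hedgehog genes in each E18.5 lung on the deposited log scale, with the same height of axis in every panel. Each point is 1 lung, its shape gives the replicate, and black bars show each genotype's mean with its SD over 3 lungs. Only for *Hhip* do the null lungs, at 8.86 to 8.98, lie below every WT lung, at 9.05 to 9.48.

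*Gli1*, the activator that is switched on by the signal, had WT values of 5.65, 5.51 and 5.39 against null values of 5.52, 5.45 and 5.86. Null replicate 3 was the highest lung, and the other null lungs lay inside the WT range. The difference was 0.09 (95% interval -0.21 to 0.39, adjusted p = 0.94 from limma) and turned to -0.03 without null replicate 3.

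*Gli2*, the main activator before *Gli1* is induced, had WT values of 5.78, 5.68 and 5.90 against null values of 5.96, 5.78 and 5.76. The genotypes overlapped, and the difference was 0.05 (95% interval -0.19 to 0.28, adjusted p = 0.967 from limma). *Gli3*, which acts mostly as a repressor, had WT values of 6.15, 6.14 and 6.20 against null values of 6.16, 6.10 and 6.22. It had the smallest spread of the 9 genes, with 0.12 between the highest and lowest lungs and a larger spread within the genotypes in 96.6% of all genes. Its difference was -0.0033 (95% interval -0.19 to 0.19, adjusted p = 0.997 from limma).

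*Hhip* had the largest difference of the 9 genes with all 6 lungs in the fit. It encodes a membrane protein that binds Hedgehog ligands and keeps them from the receptor. Its WT values were 9.48, 9.05 and 9.07, against null values of 8.86, 8.98 and 8.91. No null value reached the WT range, which was so in the same direction for 5.51% of all genes, but the gap between null replicate 2 and WT replicate 2 was small beside the height of WT replicate 1. The mean went from 9.20 ± 0.24 (SD, n = 3) to 8.92 ± 0.06 (SD, n = 3), a difference of -0.28 (standard error 0.117, 95% interval -0.55 to -0.02). The unadjusted p of 0.039 from limma became 0.89 after adjustment over all genes, so that *Hhip* did not pass, and an exact permutation test of 3 lungs against 3 can give no p below 0.1. Without WT replicate 1 the difference was -0.14 (limma, unadjusted p = 0.0774 and adjusted p = 0.609), and without both WT replicate 1 and null replicate 3 it was also -0.14 (limma, adjusted p = 0.335).

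**Figure D2:**
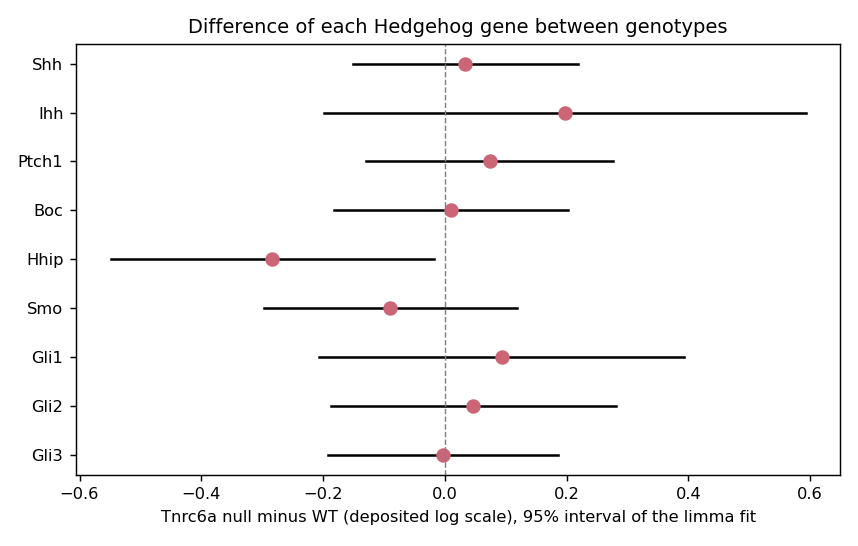
Difference between *Tnrc6a* null and WT lungs for each Hedgehog gene. Points are differences on the deposited log scale, lines are 95% intervals of the limma fit over 3 lungs a genotype, and the dashed line marks 0. The interval of *Hhip* ends at -0.02, and those of the other 8 genes hold 0.

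Among the 3 feedback targets, *Ptch1* and *Gli1* stood at 0.07 and 0.09 and *Hhip* at -0.28, and none of these passed. In null replicate 3, *Ptch1*, *Gli1* and *Gli3* each had their highest value of the 6 lungs, whereas *Hhip* had its highest in WT replicate 1. The mean deviation of the 9 genes from their own means ran from -0.03 in null replicate 1 to 0.05 in null replicate 3, with the WT lungs between -0.01 and 0.01. In null replicate 3 the 7 proliferation genes, all higher on average and 3 of them at an unadjusted p under 0.05, also had their highest mean (7.38, against 6.64 to 7.23 in the WT lungs), and so did genes of liver (5.65, against 4.41 to 4.96). Over all genes, 2.46% were higher at an unadjusted p under 0.05. Of the 4 liver genes, *Alb* stood at 7.61 in that lung and at 4.78 to 6.26 in the others, and the median of the liver genes was 0.28 with that lung and -0.07 without it. The part of these in the values of *Ptch1*, *Gli1* and *Gli3* was not tested.

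Across the 6 lungs, *Shh* was set against each of the feedback targets, 3 relations in all. Pearson's r of *Shh* with *Ptch1* was 0.26 (exact permutation p = 0.664) and Spearman's rho 0.43 (exact permutation p = 0.419). With *Gli1* they were -0.04 (exact permutation p = 0.956) and 0.09 (exact permutation p = 0.919). Neither relation could be told from none. With *Hhip* they were -0.72 (exact permutation p = 0.075) and -0.71 (exact permutation p = 0.136), and after adjustment over the 3 relations the exact permutation p was 0.225 for r and 0.408 for rho. The lung with *Shh* farthest from its median was null replicate 1, and WT replicates 1 and 2 tied for the next place. The r with *Hhip* was 0.12 without null replicate 1 and WT replicate 1, but -0.92 without null replicate 1 and WT replicate 2, a choice added after the data were seen, so that its size depended on which of the tied lungs was dropped. It was -0.77 (exact permutation p = 0.0417, adjusted 0.125) with each genotype centred on its own mean and -0.87 (exact permutation p = 0.0333, adjusted 0.1) after quantile normalization, which also put the r with *Ptch1* at 0.65 (exact permutation p = 0.144, adjusted 0.217). None of these passed after adjustment. A genotype alone has too few lungs for a value.

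**Figure D3:**
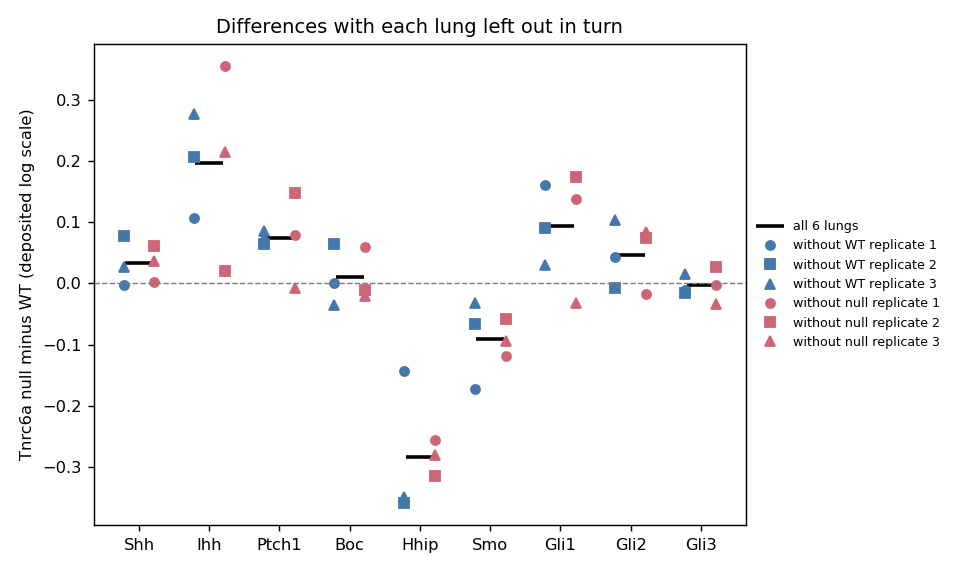
Differences of the Hedgehog genes with each lung left out in turn. The vertical axis is *Tnrc6a* null minus WT on the deposited log scale, the black bars are the values with all 6 lungs, and each point leaves out 1 lung. *Hhip* stays below 0, between -0.36 and -0.14, and *Ptch1* and *Gli1* cross 0 without null replicate 3.

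Sequence before the transcription start was read for the feedback targets, since GLI proteins act on DNA. RefSeq promoters of GRCm38.p6, 250 bases before to 50 after a start, matched 6 of the 9 genes, namely *Ihh*, *Ptch1*, *Hhip*, *Smo*, *Gli2* and *Gli3*, and not *Shh*, *Gli1* and *Boc*. The 250 bases before the start of *Hhip* (chr8:80058009-80058258, minus strand) and *Ptch1* (chr13:63565736-63565985, minus strand) are shown 5′ to 3′, as the targets with the lowest and with a slightly positive difference. Capitals mark CCACCC, the core of the GLI motif, on either strand.
*Hhip*: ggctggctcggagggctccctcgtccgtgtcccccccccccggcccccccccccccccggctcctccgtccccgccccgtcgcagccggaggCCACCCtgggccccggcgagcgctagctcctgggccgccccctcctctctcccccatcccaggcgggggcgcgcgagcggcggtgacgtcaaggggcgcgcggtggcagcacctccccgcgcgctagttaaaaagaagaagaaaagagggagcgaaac
*Ptch1*: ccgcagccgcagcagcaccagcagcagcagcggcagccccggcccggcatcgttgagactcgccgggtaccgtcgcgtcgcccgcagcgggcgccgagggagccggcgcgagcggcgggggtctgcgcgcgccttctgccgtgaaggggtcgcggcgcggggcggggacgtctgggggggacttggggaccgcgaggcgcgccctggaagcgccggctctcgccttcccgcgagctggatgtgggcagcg

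The whole GLI motif, GACCACCCA on either strand, was in none of the 6 promoters and in 0.253% of all 32851. The core CCACCC, which the whole motif contains, was in 5 of the 6, all but *Ptch1*, and in 31.5% of all promoters. In *Hhip* it began at position -158 from the start. The 6 promoters were rich in G and C, at 67.3% to 76.3%, against a median of 52.7% over all promoters. A match is only a description of the letters in this window.

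The other genes of the pathway were read from a list of 47, of which 42 had a value. None passed an adjusted p of 0.05 (lowest adjusted p = 0.89 from limma). At an unadjusted p under 0.05, 3 were lower and 0 higher, beside 2.96% and 2.46% of all genes, and 28 of the 42 were lower on average with a median of -0.05 (27 after quantile normalization and 32 after median centring). The genotypes did not overlap in 5 of them (11.9%), which is close to the 10.2% of all genes that did not overlap in either direction. All 5 were lower, beside 5.51% of all genes that did not overlap in that direction.

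Genes that release the ligand or help receive it were divided, with 5 of 11 higher, 6 lower, none at an unadjusted p under 0.05 and a median of -0.0033. The smallest p was that of *Gas1*, a co-receptor anchored to the membrane, which had WT values of 6.21, 6.43 and 6.58 against null values of 5.95, 6.28 and 6.22. Its genotypes overlapped, at a difference of -0.26 (standard error 0.127, adjusted p = 0.89 from limma). *Scube2*, whose protein helps to carry the ligand away from the cell that makes it, stood at -0.09, and *Disp1*, which releases the lipid-bound ligand, at 0.11.

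Genes that act downstream of *Smo* were lower in 16 of 20, with a median of -0.09 (-0.14 without null replicate 3). Of these, 2 lay at an unadjusted p under 0.05, both lower, beside 2.96% of all genes. Neither passed over all genes. In 4 of the 20 every null value lay below the WT range, and in none above it. A gap in that direction was seen in 5.51% of all genes. *Cul3*, the scaffold of a ubiquitin ligase that acts on GLI proteins, had WT values of 8.57, 8.40 and 8.50 against null values of 8.27, 8.30 and 8.35. *Tulp3*, which brings receptors into the primary cilium, had WT values of 7.07, 7.36 and 7.23 against null values of 7.04, 7.04 and 6.82. Their differences were -0.18 (standard error 0.074) and -0.25 (standard error 0.103), both at an adjusted p of 0.89 from limma. *Csnk1e*, a casein kinase gene, stood at -0.14 with no overlap, and *Cul3* and *Tulp3* did not overlap either. These genes serve other pathways too. With quantile normalization, eBayes without trend or the replicate block, no gene of this list lay at an unadjusted p under 0.05. The number was 5 with median centring and 6 with array weights. It was also 6 with WT replicate 1 and null replicate 3 fitted as a pair. That pair was picked from these same values and is named by no label.

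Genes that respond to the signal in mesenchyme went both ways, with 6 of 11 lower (8 after median centring), 5 higher and a median of -0.04. The D-type cyclin gene *Ccnd2* had WT values of 8.50, 8.46 and 8.54 against null values of 8.36, 8.27 and 8.30, a difference of -0.19 (standard error 0.069, adjusted p = 0.89 from limma). It was the 1 gene of this list at an unadjusted p under 0.05, beside 5.42% of all genes. It was also the only one of the 11 whose genotypes did not overlap, beside 10.2% of all genes. A share of 1 in 11 is no result about these genes. *Bcl2*, which encodes a survival protein, stood at 0.26, with its highest value, 7.31, in null replicate 3, and *Mycn*, a growth-promoting transcription factor, at -0.30 with overlapping genotypes. *Foxf1*, the mesenchymal transcription factor that depends on *Shh* in the fetal lung, stood at -0.14, with null replicate 3 the lowest lung; it was named after its value was seen.

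**Figure D4:**
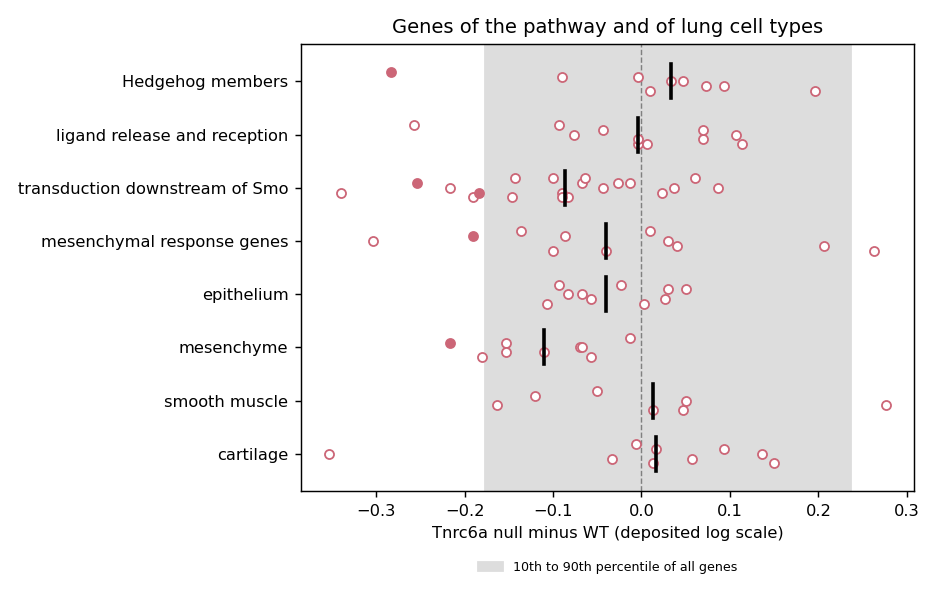
Difference between *Tnrc6a* null and WT lungs for each gene of 8 lists. The horizontal axis is on the deposited log scale, each circle is 1 gene, filled circles lie at an unadjusted p under 0.05, black bars are list medians and the grey band spans the 10th to the 90th percentile of all genes, -0.18 to 0.24. The medians of the 8 lists lie between -0.11 for mesenchyme and 0.03 for the Hedgehog genes.

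In whole lung, fewer cells of a type and less RNA per cell cannot be told apart, so markers of the cells that send and receive the signal were read beside *Hhip* and *Shh*. Of 9 genes of mesenchyme, 9 were lower, at a median of -0.11, with *Tcf21* the 1 at an unadjusted p under 0.05. Over all genes, 2.96% were lower at that level. The genotypes did not overlap in 3 of the 9, all lower, beside 5.51% of all genes in that direction. The mean of this list was 8.89 to 8.92 in the WT lungs and 8.77 to 8.82 in the null lungs. It thus lay lower in each null lung, as *Hhip* did, and none of its genes fell below 7.31 in any lung. A lower mean in each null lung was not particular to mesenchyme. The endothelial mean was at most 8.84 in the null lungs and at least 8.87 in the WT lungs. For the genes downstream of *Smo* these bounds were 7.03 and 7.07. In the other lists the means of the genotypes overlapped. *Hhip* was highest by 0.41 over the next lung in WT replicate 1, where the mesenchyme mean, at 8.90, was within the range of the other WT lungs. The part of the mesenchyme in the value of *Hhip* was not tested. Smooth muscle genes were higher in 4 of 7 and lower in 3, none at an unadjusted p under 0.05, with a median of 0.01 (4 of 7 lower after median centring). *Actg2*, the enteric smooth muscle actin gene, was high in WT replicate 1 (6.80) and in null replicate 3 (7.02), the lungs at which *Hhip* stood at 9.48 and 8.91. It was next highest in null replicate 1 (6.56). The list went both ways in null replicate 3, where *Acta2* had its highest value (9.82) and *Tagln* (6.79) and *Des* (6.45) their lowest. Epithelial genes were lower in 6 of 10 and higher in 4, none at an unadjusted p under 0.05, with a median of -0.04 (9 of 10 lower after median centring). *Cdh1*, the E-cadherin gene and the one with the smallest p of this list, had WT values of 9.45, 9.42 and 9.46 against null values of 9.32, 9.35 and 9.34, with no overlap and a difference of -0.11 (adjusted p = 0.892 from limma). *Sftpc* stood at 11.64 to 11.82 over all 6 lungs and overlapped. Endothelial genes were lower in 5 of 5, with a median of -0.18. Of these, *Cdh5*, *Pecam1* and *Tie1* had an unadjusted p under 0.05 and no overlap, beside 2.96% and 5.51% of all genes in that direction. None of the 3 passed after adjustment (adjusted p = 0.89 from limma). The lists of mesothelium, erythroid cells, cardiomyocytes and thymus had medians of -0.06, 0.14, -0.12 and -0.04 with no gene at an unadjusted p under 0.05. These 4 medians turned sign without 1 lung, to 0.09, 0.02 and 0.02 for mesothelium, cardiomyocytes and thymus without null replicate 3 and to -0.02 for erythroid cells without WT replicate 1.

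The genes whose values over the 6 lungs lay closest to those of *Shh*, each centred on its own mean, were *Smyd2*, *Smox*, *Sema6d*, *Cbln4* and *Zfp593*, with a root mean square difference of 0.009 to 0.024. For *Gli1* they were *Nap1l4*, *Mdm1*, *Rnf5*, *Incenp* and *Cyb5b*, at 0.018 to 0.026. They were picked from 19938 genes over 6 lungs, and no pathway gene of the lists was among them.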

How the data were processed

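Total RNA of single E18.5 lungs was run on Affymetrix Mouse Gene 1.0 ST arrays. The authors deposited log2 values, by the labels, for 35045 probe sets in every lung. MAS5 is named in the submitters' processing notes, with its version and settings not given in the sources used here. Array medians lay between 4.98 and 5.03, and values were used as deposited. Sample titles gave the genotype and the replicate number. Probe sets with 1 symbol (21789; 1621 had several and 11635 none) were kept, with symbols updated where the Entrez ID was in the GRCm38.p6 gene table (21698 matched), and the brightest stood for a gene (999 genes had several). All 19938 genes were fitted with limma 3.58.1 in R 4.3.3 (lmFit, eBayes with trend), with Benjamini-Hochberg adjustment over all genes and a threshold of 0.05. Relations across lungs were tested with two-sided exact permutation tests in scipy 1.17.1 (Python 3.11.15, pandas 2.3.3, matplotlib 3.10.9 for plots). The fit was tested on simulated lungs with 200 genes changed. It called 25.4% of changes of 0.5 on the log scale, 74.6% of changes of 1 and 93.9% of changes of 2. With so many genes changed, an adjusted p under 0.05 is easier to reach than in the real lungs, where 1 gene passed. Noise was also drawn for each gene separately, without patterns shared between lungs. The shares called may therefore be too high for the real lungs, and small changes would mostly be missed. No signal over background could be measured. Dim genes stayed in, and the number of arrays limits the precision. Nothing says that lungs of a genotype came from separate litters, so p-values measure the spread between these embryos.

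The genes and lists were chosen with earlier results of these data known. Named were the 9 Hedgehog genes, *Tnrc6a*, up to 3 genes of every other list by smallest p, and the 5 genes closest in pattern to *Shh* and to *Gli1*. Alternatives were the methods' t-test, eBayes robust or without trend, array weights, a block for the replicate number, quantile normalization, centring on the median, averaging probe sets, dropping dim genes, omitting each lung in turn, and WT replicate 1 and null replicate 3 as a pair or left out. Some listed genes are not reported here.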

Additional observations from a re-analysis of the deposited data

How the results depend on the processing

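Under 17 alternatives no Hedgehog gene passed an adjusted p of 0.05 (lowest adjusted p = 0.136 from limma, for *Hhip* with WT replicate 1 and null replicate 3 as a pair). *Hhip* was negative in all 17, from -0.36 to -0.14, and kept an unadjusted p under 0.05 in 9. Its sign was not free to turn in many of these. The t-test, both eBayes variants, the replicate block, the pair, averaging probe sets and dropping dim genes all leave its difference at -0.28 by design. The number of the 9 genes at that level, 1, was 0 with eBayes without trend, array weights, the replicate block and the methods' t-test, 2 (*Hhip* and *Smo*) without both WT replicate 1 and null replicate 3, and 0 to 1 without any 1 lung. Over all genes 1 passed the adjusted threshold, 2 with array weights, 0 with the methods' t-test (1102 at an unadjusted p under 0.05), 56 with the 2 lungs as a pair, 23 without both, and 0 to 1 without any 1 lung. The 2 lungs were picked by their correlation in these same data, and no label pairs them. Counts and p-values from these 2 fits, the limma value of 0.136 for *Hhip* included, are therefore descriptions and not calls. The median of the 9 genes ran from -0.02 to 0.065 without 1 lung. Signs turned for *Gli3* with quantile normalization (0.005), for *Shh* (-0.00333) and *Boc* (-0.027) with median centring, for *Shh* (-0.00995) and *Boc* (-0.022) with array weights, and for *Ptch1* (-0.01) and *Boc* (-0.03) without both lungs, where *Shh* was at 0. Without 1 lung *Shh* ran from -0.00333 to 0.0767, *Ihh* from 0.02 to 0.355, *Smo* from -0.172 to -0.0317, *Ptch1* from -0.00667 to 0.148, *Gli1* from -0.0317 to 0.173, *Gli2* from -0.0167 to 0.103, *Gli3* from -0.0333 to 0.0267 (-0.04 without both lungs) and *Boc* from -0.035 to 0.065. With quantile normalization the r of *Shh* was 0.12 with *Gli1*, 0.65 with *Ptch1* and -0.87 with *Hhip*. The causes of these changes were not tested. Deviations of same-numbered lungs correlated at -0.30, 0.36 and -0.16, so the numbers were not taken to pair the lungs; with the replicate block *Hhip* stood at -0.28 (adjusted p = 0.95 from limma). The filter on dim genes removed *Ihh*.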
